A study of Mus musculus with 18 samples.

Results

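The p53 targets and apoptosis genes described here are Trp53, Cdkn1a, Mdm2, Bbc3, Bax, Phlda3, Ccng1, Gadd45a and Bcl2l11. They were chosen by gene symbol, and all 9 were found among the 37319 gene entries of an RNA-seq table of the ipsilateral cortex, the cortex on the side of the brain made ischaemic. The mice were adult male C57BL/6J animals aged 8 to 10 weeks. Each had received an adeno-associated virus (AAV) in the left lateral ventricle 4 weeks before surgery, so the control mice carried a virus and a short hairpin RNA (shRNA) as well. In both viruses the synapsin promoter, which is active in neurons, drove the shRNA. It was either directed against Tiparp, a mono-ADP-ribosyltransferase gene (AAV-SYN-shRNA-TIPARP, called here the Tiparp arm), or a scrambled control (AAV-SYN-shRNA-Con, the control arm). Surgery was a sham operation or tMCAO (transient occlusion of the middle cerebral artery), a stroke model that stops and then restores flow to lateral cortex and striatum. Occluded mice were killed at 24 h or 28 d. The 18 libraries form 6 groups of 3: Sham_C and Sham_T, R24h_C and R24h_T, and R28d_C and R28d_T, where C is the control arm and T the Tiparp arm. Whether each library is a mouse of its own is not given in the labels, and p-values measure only the spread between libraries.

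The transcription factor p53, encoded by Trp53, is held at a low level by the ubiquitin ligase MDM2 and accumulates after DNA damage and other stress. It then raises transcription of genes that stop the cell cycle, such as Cdkn1a, genes that open the mitochondrial outer membrane, such as Bbc3 and Bax, and Mdm2 itself, which closes a feedback loop. Neurons that die after ischaemia are known to use parts of this programme, and Cdkn1a, Bbc3, Gadd45a and Bcl2l11 also have activators other than p53, among them FOXO, JNK and ATF4 pathways.

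The promoter stretches that hold a p53 consensus decamer, the unit from which p53 binding sites are built, are shown because the members share this factor. They come from RefSeq promoter windows of 250 bases before to 50 bases after each gene start (mouse build GRCm38.p6), in the sense direction of the gene, with the decamer in capitals. Every decamer was matched whole on both strands, and 6 of the 9 members held one. Of all 32851 windows 8.36% held one, and of all 27025 genes 9.55%.

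Trp53, chr11:69580269-69580308, plus strand: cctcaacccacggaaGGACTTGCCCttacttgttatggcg

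Cdkn1a, chr17:29090891-29090952, plus strand: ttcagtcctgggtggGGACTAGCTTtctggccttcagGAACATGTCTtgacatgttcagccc

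Mdm2, chr10:117710920-117710959, minus strand: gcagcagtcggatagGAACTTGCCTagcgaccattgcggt

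Bax, chr7:45467075-45467114, minus strand: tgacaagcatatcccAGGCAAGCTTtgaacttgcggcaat

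Ccng1, chr11:40755447-40755486, minus strand: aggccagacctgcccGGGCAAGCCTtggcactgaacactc

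Gadd45a, chr6:67037423-67037462, minus strand: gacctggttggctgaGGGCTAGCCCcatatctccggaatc

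Cdkn1a was the member with more than 1 decamer, beginning 73 and 51 bases before the upstream of its starts. The window of its downstream start, chr17:29093519-29093818, held none. The decamer began 75 bases before the start of Trp53, 40 before that of Gadd45a, 186 before that of Mdm2, 185 before that of Ccng1 and 201 before that of Bax. The remaining 3 members, Bbc3, Phlda3 and Bcl2l11, had none in these windows, which says nothing of p53 sites elsewhere. The best-known p53 sites of Mdm2 lie outside such windows, in an intron.

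FOXO factors, which are known to drive Bbc3 and Bcl2l11 when growth factor signals fall, bind the motif GTAAACA. Searched on both strands, it was in 3 of the 9 members, among them both of these genes, and in 4.05% of all genes and 3.65% of all windows. It is in capitals below and overlapped none of the decamers.

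Bbc3, chr7:16310079-16310115, plus strand: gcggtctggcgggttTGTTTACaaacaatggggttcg

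Bcl2l11, chr2:128125796-128125832, plus strand: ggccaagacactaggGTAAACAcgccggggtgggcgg

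Mdm2, chr10:117710890-117710926, minus strand: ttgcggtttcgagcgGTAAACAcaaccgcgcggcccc

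In these stretches the motif began 167 bases before a start of Bbc3, 227 before a start of Bcl2l11 and 153 before that of Mdm2. A match is a run of letters and not a measured site, since no binding was assayed.

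Levels are in FPKM, fragments mapped to a gene scaled to its transcript length and to the library total, which allows levels of different genes to be compared. In the 6 sham libraries the mean level was highest for Ccng1, at 16.5 ± 1.57 FPKM (SD, n = 6), and for Cdkn1a, at 11.4 ± 4.77 FPKM. Bax followed at 8.22 ± 0.729 FPKM, and in Sham_T alone Cdkn1a (7.28 FPKM) was below Bax (8.16 FPKM). Phlda3, Mdm2 and Trp53 lay close together at 5.71 ± 0.836, 5.32 ± 0.409 and 5.14 ± 0.381 FPKM, within each other's spread. Gadd45a was at 3.36 ± 0.646 FPKM and Bbc3 at 1.98 ± 0.393 FPKM. Bcl2l11 was lowest, between 0.366 and 0.601 FPKM in sham.

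Several libraries stood apart from others of their group before any test. Tiparp itself, the target of the shRNA, was not lower in the sham Tiparp arm (105% of the control mean) or at 28 d (99.4%), and was at 60.2% at 24 h, where limma's adjusted p was 0.668. R24h_T3 had the smallest 24 h sum of monocyte and macrophage markers, at 21.7 FPKM against 32.4 to 189 FPKM in the other 24 h libraries and 4.82 to 8.02 FPKM in sham. Choroid plexus markers summed to between 514 and 1720 FPKM in Sham_T1, Sham_T2, R24h_C3 and R28d_T2, and to at most 85.5 FPKM in the other 14 libraries. All 9 excitatory cortical neuron markers were detected in every library.

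At 24 h after tMCAO, 7 of the 8 members tested were higher than in sham over both arms: Trp53, Cdkn1a, Mdm2, Bbc3, Bax, Phlda3 and Ccng1. Cdkn1a, which encodes the CDK inhibitor p21, rose most, and its mean was 5.58 times that of sham in the control arm and 6.13 times in the Tiparp arm. Phlda3, which encodes an inhibitor of AKT signalling, came next by log2 difference. Trp53 and its inhibitor Mdm2 both rose, with means 1.49 to 1.78 times those of sham. Gadd45a did not pass, and Bcl2l11 was too low to be tested. Of all 14589 genes tested, 26.1% passed in either direction, 20.4% higher and 5.7% lower, so the count of members is to be read against a broad change. The median difference of the 8 members was 0.57 on the log2(FPKM + 1) scale, against 0.10 over all genes. The members were chosen with earlier results of these data known, so this contrast is a description and not a test.

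**Figure D1:**
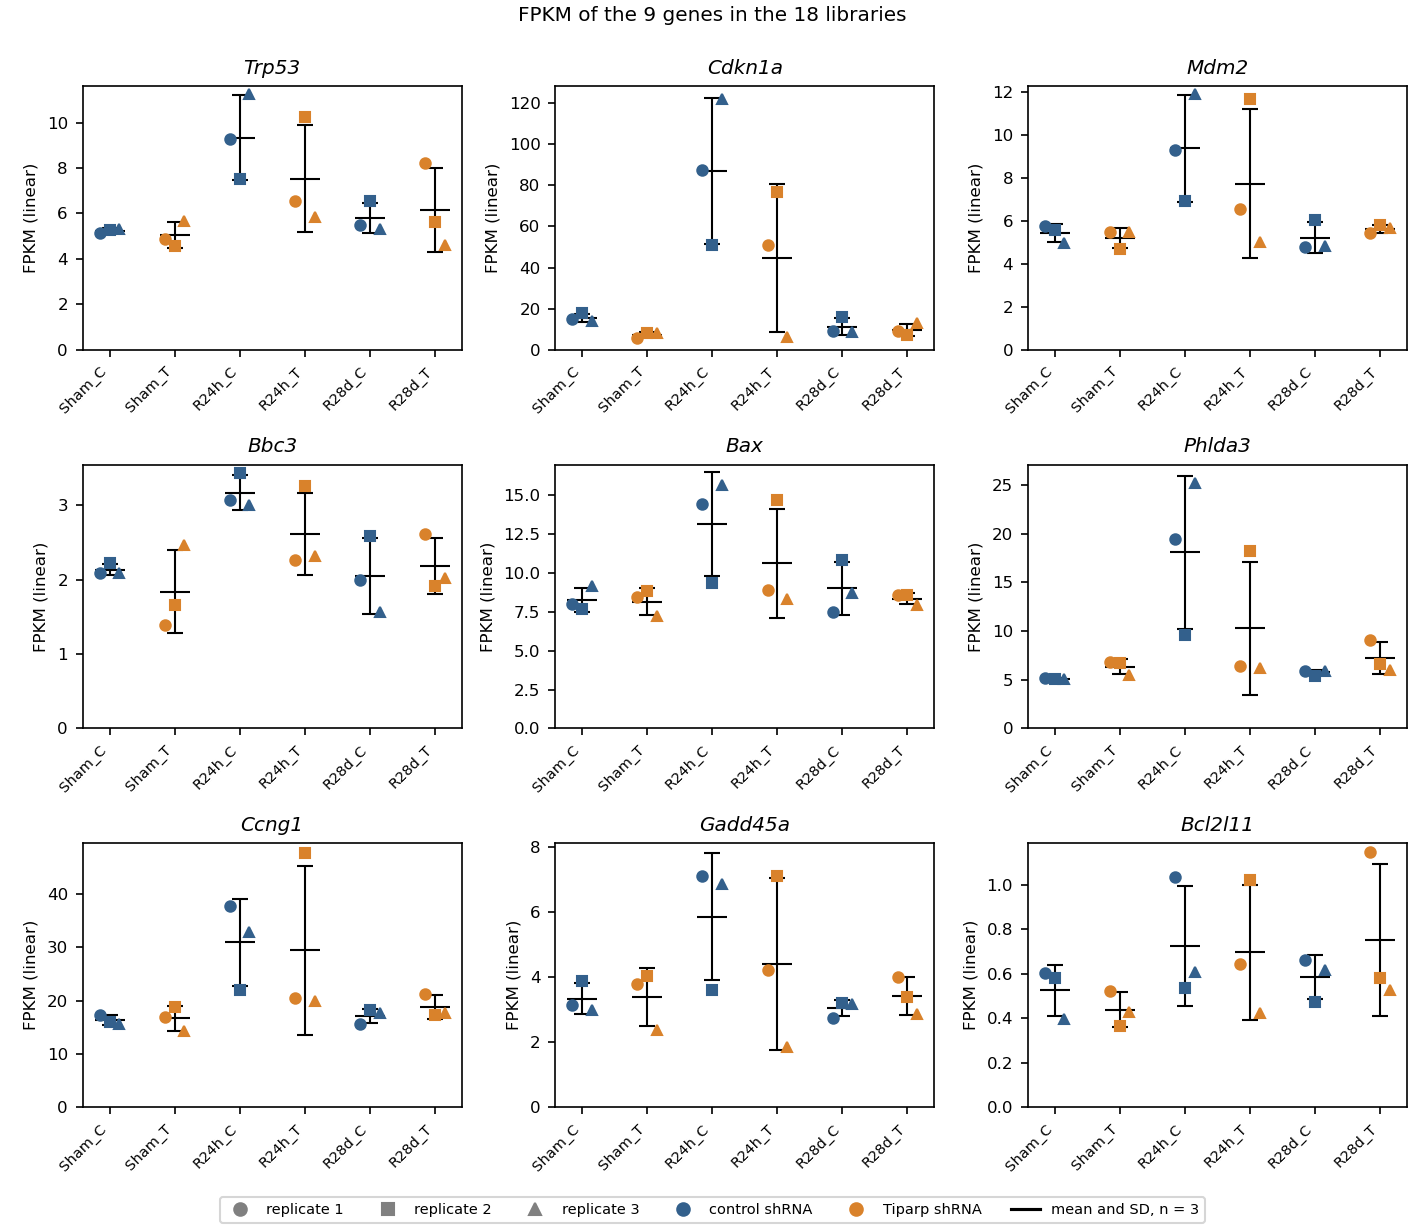
FPKM (linear axis from 0) of the 9 genes in the 18 libraries, 1 panel a gene and 3 libraries a group, with the mean and SD as bars; marker shape gives the replicate number and colour the arm. In the 24 h groups Cdkn1a reaches 122 FPKM in R24h_C3 and stays at 5.95 FPKM in R24h_T3, and for most genes R24h_C1, R24h_C3 and R24h_T2 are the high libraries.

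The tests used limma on log2(FPKM + 1) for genes at 1 FPKM or more in at least 3 libraries of the fit, two-sided, with Benjamini-Hochberg adjustment over all genes tested and a threshold of 0.05. Differences on this scale understate the fold change of low genes. Both-arm values are the mean of the 24 h minus sham differences of the arms, over 12 libraries. Scaling each library to the median ratio took the all-gene median from 0.10 to 0.0039 and the split of called genes from 2983 higher and 832 lower to 1955 and 1458. It left all 8 members above 0 and 5 of them called.

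Of the regulators, Trp53 was at 5.14, 5.28 and 5.32 FPKM in Sham_C1 to Sham_C3 and at 4.86, 4.59 and 5.67 FPKM in Sham_T1 to Sham_T3. In the 24 h libraries its level was 9.27, 7.51 and 11.3 FPKM in R24h_C1 to R24h_C3 and 6.54, 10.2 and 5.84 FPKM in R24h_T1 to R24h_T3. All 6 libraries at 24 h were above all 6 sham libraries, although R24h_T3 was barely so. The difference was 0.59 (SE 0.13, adjusted p = 0.00834). Mdm2, the ubiquitin ligase that p53 induces and that degrades it, was at 4.68 to 5.77 FPKM in sham. After 24 h the values were 9.32, 6.91 and 11.9 FPKM in the control arm and 6.54, 11.7 and 5.01 FPKM in the Tiparp arm. Here 5 of 6 libraries exceeded every sham library, and R24h_T3 lay within the sham range. The difference was 0.54 (SE 0.17, adjusted p = 0.0374), and the call was lost in 12 of 18 alternatives, 8 of them single libraries left out, with adjusted p from 0.00857 to 0.263.

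Among the cell cycle genes, Cdkn1a had the widest range. In sham it was at 14.9, 17.8 and 14.2 FPKM in the control arm and at 5.90, 7.97 and 7.96 FPKM in the Tiparp arm. It reached 87.5, 51.1 and 122 FPKM in R24h_C1 to R24h_C3, and stood at 50.8, 77.0 and 5.95 FPKM in R24h_T1 to R24h_T3. The first 5 of these exceeded every other library, sham or 28 d, while R24h_T3 stood at 0.818 of its arm's sham mean. The difference over both arms was 2.11 (SE 0.49, adjusted p = 0.0111).

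Ccng1 encodes cyclin G1, a p53 target that recruits a phosphatase to MDM2. It was at 14.3 to 18.8 FPKM in sham. A day after occlusion the level was 37.8, 22.03 and 32.9 FPKM in the control arm and 20.5, 47.8 and 19.9 FPKM in the Tiparp arm, and all 6 values were above the sham range. The difference was 0.76 (SE 0.21, adjusted p = 0.0218). Gadd45a, a growth arrest gene also induced by DNA damage without p53, was at 2.36 to 4.04 FPKM in sham. The 24 h libraries held 7.12, 3.60 and 6.85 FPKM in the control arm and 4.22, 7.13 and 1.85 FPKM in the Tiparp arm, which include both the highest and the lowest value of this gene in the 18 libraries. Its difference of 0.41 had an SE of 0.24 (adjusted p = 0.221) and a 95% confidence interval from -0.12 to 0.93. Without R24h_T3 the difference was 0.61 with adjusted p = 0.0294.

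Of the genes of mitochondrial apoptosis, Bbc3, which encodes the BH3-only protein PUMA, was at 2.09, 2.22 and 2.09 FPKM in Sham_C and at 1.39, 1.66 and 2.46 FPKM in Sham_T. The 24 h values were 3.06, 3.44 and 3.00 FPKM in R24h_C and 2.26, 3.26 and 2.32 FPKM in R24h_T. R24h_C2 was the highest of the 24 h libraries here, which it was for no other member, and 4 of 6 libraries exceeded all of sham. Its difference was 0.38 (SE 0.10, adjusted p = 0.0210). Bax, which encodes the pore-forming effector, was at 7.21 to 9.17 FPKM in sham, and at 24 h at 14.4, 9.38 and 15.7 FPKM in the control arm and at 8.90, 14.7 and 8.33 FPKM in the Tiparp arm. R24h_T1 and R24h_T3 lay within the sham range, and the difference was 0.45 (SE 0.15, adjusted p = 0.0482), close to the threshold. The call for Bax was lost in 13 of 18 alternatives, with adjusted p from 0.0120 to 0.194.

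Bcl2l11, which encodes the BH3-only protein BIM, reached 1 FPKM in too few libraries for this fit. Its 24 h levels were 1.03, 0.534 and 0.608 FPKM in the control arm and 0.643, 1.02 and 0.424 FPKM in the Tiparp arm, with R24h_C2 and R24h_T3 within the sham range. With no filter on low values its difference was 0.20 (SE 0.10, adjusted p = 0.293), and the 95% confidence interval ran from -0.03 to 0.43.

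Phlda3 was at 5.13, 5.03 and 5.10 FPKM in Sham_C and at 6.85, 6.69 and 5.47 FPKM in Sham_T. The 24 h libraries were at 19.4, 9.60 and 25.2 FPKM in R24h_C and at 6.43, 18.2 and 6.24 FPKM in R24h_T. All 3 control libraries at 24 h were above every sham library, whereas of the Tiparp arm R24h_T2 alone was. The difference over both arms was 1.01 (SE 0.26, adjusted p = 0.0184).

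The order of the 24 h libraries differed between members, but most shared the lowest place. R24h_T3 was the lowest of the 6 libraries at 24 h for 8 of the 9 genes, the exception being Bbc3, for which R24h_T1 was lowest. The count of members called over both arms ranged from 4 to 8 when each library was left out, and was 8 of 8 without R24h_T3 and 4 without R24h_C1, Sham_T1 or Sham_T3. Over all genes 3815 of 14589 were called in the main fit and 5288 of 14550 without R24h_T3. There were 2226 of 14356 without R24h_C1, 2608 of 14533 without Sham_T1 and 2548 of 14530 without Sham_T3. In a comparison chosen after the data were seen, the libraries rich in choroid plexus markers were left out. For 24 h against sham these were Sham_T1, Sham_T2 and R24h_C3, which left Sham_T3 as the lone Sham_T library. The calls of the members did not hold, and fewer genes were called over all. All 8 differences stayed above 0, with Cdkn1a at 1.90 and Phlda3 at 0.96. No filter on low values left 4 of the 9 called, and 3053 of 36050 genes: the 4 were Trp53, Cdkn1a, Bbc3 and Phlda3.

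Markers of other cells moved with these genes at 24 h. All 5 tested of the 8 monocyte and macrophage markers were higher, as were 4 of 5 tested neutrophil markers, 5 of 6 tested endothelial markers and 5 of 5 tested mural cell markers. Of 6 meningeal markers 5 were higher. Over all genes 20.4% were higher and 5.7% lower. Markers that were low in sham, such as those of neutrophils, were tested only through their 24 h levels, so these counts are partly set by the filter. The microglial markers P2ry12, Siglech and Gpr34 were lower, and of 8 striatal neuron markers 2, Drd2 and Adora2a, were lower. Summed monocyte and macrophage markers were at 189, 32.4 and 159 FPKM in R24h_C1 to R24h_C3 and at 54.0, 104 and 21.7 FPKM in R24h_T1 to R24h_T3, with none of the 8 at 0. Neutrophil markers summed to 22.2 to 199 FPKM in R24h_C and 4.62 to 23.4 FPKM in R24h_T, against 0.556 to 1.86 FPKM in sham, where Ly6g was at 0 in all 6 libraries. Endothelial markers summed to 12.5 to 49.2 FPKM at 24 h and 5.46 to 6.87 FPKM in sham. Of 9 excitatory neuron markers 1, Camk2a, was lower, and their sum was between 219 FPKM in R24h_C3 and 750 FPKM in R24h_T3 at 24 h, against 590 to 702 FPKM in sham. Their part in the members' differences was not tested. In such bulk tissue, fewer cells of a type and less RNA per cell cannot be told apart.

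**Figure D2:**
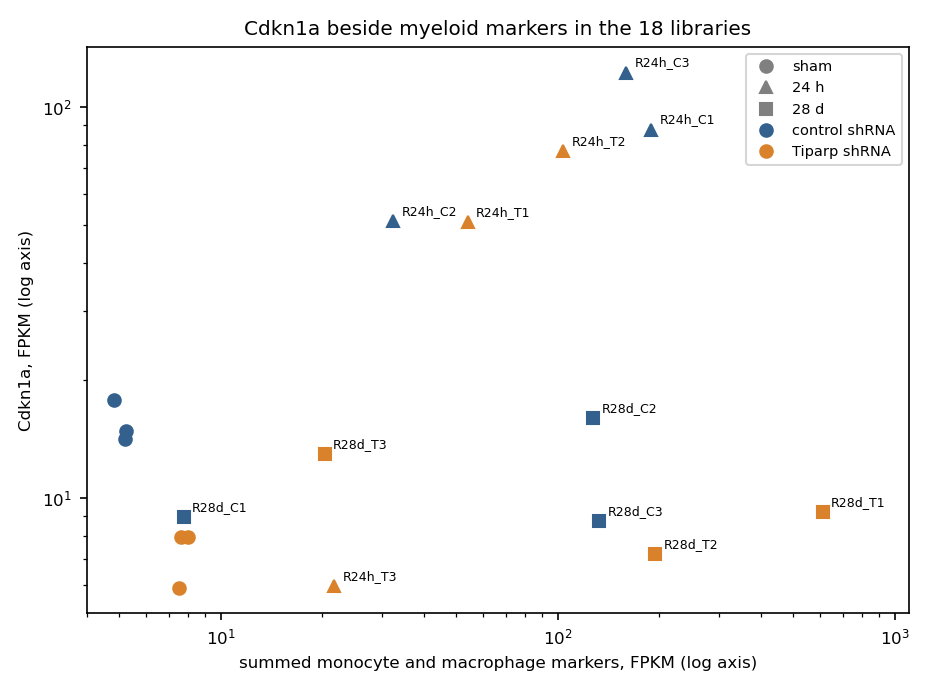
FPKM of Cdkn1a against the summed FPKM of 8 monocyte and macrophage markers in each of the 18 libraries, both on log axes; shape gives the condition and colour the arm. Libraries at 28 d reach marker sums as high as 611 FPKM (R28d_T1) with Cdkn1a at 9.20 FPKM, while R24h_C1, with a sum of 189 FPKM, has Cdkn1a at 87.5 FPKM.

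At 28 d the monocyte and macrophage sum was at 7.75, 127 and 133 FPKM in the control arm and at 611, 194 and 20.3 FPKM in the Tiparp arm. Cdkn1a at 28 d was at 8.95, 16.0 and 8.72 FPKM and at 9.20, 7.19 and 12.9 FPKM in the same libraries, within the range of the 6 sham libraries. Neutrophil markers at 28 d summed to 0.456 to 4.05 FPKM in R28d_C and 1.67 to 16.7 FPKM in R28d_T. Endothelial markers summed to 4.55 to 11.5 FPKM in R28d_C and 8.69 to 15.3 FPKM in R28d_T. The part of any of these cells in the level of Cdkn1a was not tested at either time. Dividing cell markers, of which none could be tested, summed to 1.05 to 1.63 FPKM in sham and 1.08 to 1.73 FPKM at 24 h outside R24h_T1, where the sum was 7.27 FPKM.

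In the control arm alone, 6 of 8 members were higher at 24 h than in sham, where 24% of all 13880 genes passed in either direction, 19.8% higher and 4.24% lower. Cdkn1a differed by 2.33 (adjusted p = 0.00651), Phlda3 by 1.55 (adjusted p = 0.0188), Ccng1 by 0.85 (adjusted p = 0.0258) and Trp53 by 0.71 (adjusted p = 0.0179). Mdm2 at 0.66 (adjusted p = 0.0399) and Bbc3 at 0.41 (adjusted p = 0.0214) passed as well. Bax at 0.58 (adjusted p = 0.0639) and Gadd45a at 0.62 (adjusted p = 0.0887) did not. For 7 of the 8 members the 3 libraries at 24 h lay above the 3 sham libraries, Gadd45a being the exception, and 47.9% of all genes had groups that did not overlap. The count was 1 without R24h_C1 or without any single sham library, and Cdkn1a was called throughout. It was 4 without R24h_C3 and 8 without R24h_C2, in which Cdkn1a and Phlda3 were lowest of the control libraries at 24 h. Calls over all genes moved as well, from 3335 of 13880 to 320 of 13262 without R24h_C1 and 563 to 761 without a sham library. They were 2012 of 13218 without R24h_C3 and 4854 of 13289 without R24h_C2.

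In the Tiparp arm alone none of the 8 members passed with limma, where 0.222% of 13509 genes did (0.133% higher, 0.0888% lower). All 8 differences were above 0, with a median of 0.45, and 2 had an unadjusted p under 0.05, against 59.8% and 14.3% of all genes. For Trp53 and Ccng1 the 3 libraries at 24 h lay above those of sham, and 22.2% of all genes had groups that did not overlap. Adjusted p ran from 0.345 to 0.813. Cdkn1a differed by 1.89 (SE 0.79, adjusted p = 0.345), with a 95% confidence interval from 0.05 to 3.73, and Phlda3 by 0.47, with an interval from -0.36 to 1.30. Without R24h_T3, 825 of 13232 genes passed, among them Cdkn1a at 2.95 (SE 0.22, adjusted p = 0.00375). Without R24h_T2, the Phlda3 difference was 0.01.

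**Figure D3:**
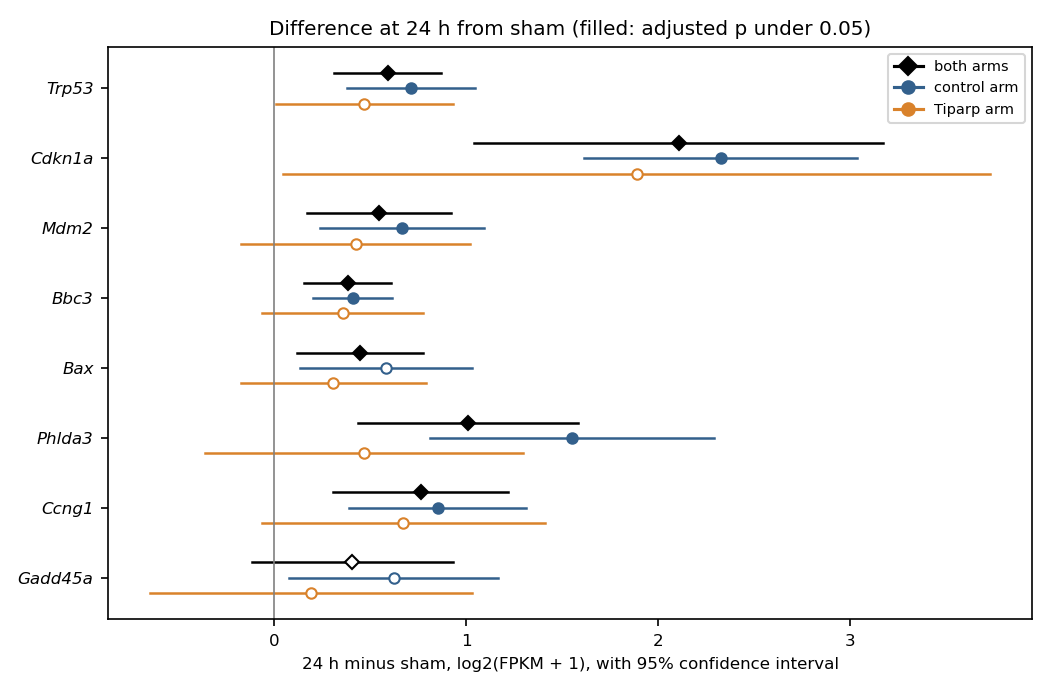
Difference at 24 h from sham on the log2(FPKM + 1) scale for the 8 members tested, with 95% confidence intervals, over both arms (diamonds, 12 libraries) and in each arm (circles, 6 libraries); filled symbols have an adjusted p under 0.05. Cdkn1a lies farthest to the right in each comparison, and the intervals of the Tiparp arm are wider than those of the control arm.

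The comparison of the arms asked whether neuronal shRNA against Tiparp alters these genes, with libraries taken as labelled, since Tiparp itself did not pass a test between the arms. At 24 h all 8 members were lower in the Tiparp arm, and none passed. No gene of the 14018 tested did (0%), no member had an unadjusted p under 0.05, and over all genes the median was -0.08 and 36.4% were above 0. In simulated data, whose noise was independent between genes, this comparison found 37% of log2 changes of 1. The mean of Cdkn1a was 44.6 ± 35.9 FPKM against 87.0 ± 35.6 FPKM (SD, n = 3 each), a log2 difference of -1.45 with a 95% confidence interval from -3.41 to 0.51. For Phlda3 the means were 10.3 ± 6.84 and 18.1 ± 7.88 FPKM, a difference of -0.82 with an interval from -1.89 to 0.25. Both have adjusted p = 0.668 in limma. The intervals of these genes hold both no change and a fall of more than 2 times.

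The responses of the arms to occlusion were compared by an interaction term, which none of the 8 members and none of the 14589 genes passed (0%). It was below 0 for all 8, with no unadjusted p under 0.05, and above 0 for 38.2% of all genes. Phlda3 was at -1.08 (SE 0.52, unadjusted p = 0.0626, adjusted p = 0.462), with an interval from -2.23 to 0.07. Cdkn1a was at -0.44, with an interval from -2.57 to 1.69, and at 0.63 without R24h_T3. That a member passed in the control arm and not in the Tiparp arm is therefore no measured difference between the arms.

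In sham cortex the arms differed most for Cdkn1a, at 7.28 ± 1.19 FPKM in the Tiparp arm and 15.6 ± 1.90 FPKM in the control arm (SD, n = 3 each), which is 46.6% of the control mean. The groups did not overlap, as held for 19.5% of genes. The log2 difference was -1.01 (SE 0.13, 95% confidence interval from -1.32 to -0.70) and adjusted p = 0.0533, so it missed the threshold, which 0.21% of 13349 genes passed (0.0824% higher, 0.127% lower). Sham_T1 and Sham_T2 are libraries rich in choroid plexus markers. Sham_T3, which is not, had Cdkn1a at 7.96 FPKM, and without the other two libraries the difference was -0.88 (adjusted p = 0.164, the lone library being assumed to vary like the others). Phlda3 went the other way and did not overlap either, at 6.34 ± 0.757 against 5.09 ± 0.0518 FPKM, a difference of 0.26 (adjusted p = 0.294). Of the 8 members tested none passed with limma, and these 2 had an unadjusted p under 0.05. The other 6 lay between -0.16 (Bbc3) and 0.02 (Ccng1) on the log2 scale.

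At 28 d none of the 8 members tested passed with limma against sham over both arms, where 0.00702% of genes did, and no member had an unadjusted p under 0.05. The values of sham and 28 d overlapped for every member, and 1.46% of genes had groups that did not. Their median difference was 0.06, and 6 of 8 were above 0. Cdkn1a was at 11.2 ± 4.15 FPKM in the control arm and 9.78 ± 2.92 FPKM in the Tiparp arm, a difference from sham over both arms of -0.06 with a 95% confidence interval from -0.43 to 0.30. This value averages arms with opposite signs: the 28 d mean was 0.720 of sham in the control arm, where R28d_C1 and R28d_C3 lay below every Sham_C library, and 1.34 times sham in the Tiparp arm. The difference within each arm at 28 d was not tested. The highest 28 d value of Trp53 (8.21 FPKM), Phlda3 (9.08 FPKM), Ccng1 (21.3 FPKM), Bbc3 (2.61 FPKM), Gadd45a (4.02 FPKM) and Bcl2l11 (1.15 FPKM) was in R28d_T1. This library also had the highest sum of monocyte and macrophage markers, whose part was not tested. Between the arms at 28 d none of the 8 passed, as no gene did (0%), with no unadjusted p under 0.05. Phlda3 was again higher in the Tiparp arm without overlap, by 0.27 (adjusted p = 0.994), where 6.09% of genes had groups that did not overlap.

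From 24 h to 28 d, 1 of 9 members tested was lower, Cdkn1a, where 4.14% of 14756 genes passed in either direction and 2.41% were lower. Its difference was -2.17 (SE 0.51, adjusted p = 0.0410), and the call was lost for 10 of the 12 libraries when each was left out, with adjusted p from 0.00141 to 0.102. The 24 h and 28 d libraries overlapped for every member, and 2.67% of genes had groups that did not overlap. All 9 members were below 0 and 7 had an unadjusted p under 0.05, which 26.9% of all genes had, while 39.3% of all genes were above 0. Phlda3 at -0.86 (adjusted p = 0.0855), Ccng1 at -0.65 (adjusted p = 0.0896) and Mdm2 at -0.52 (adjusted p = 0.0966) came nearest to the threshold. Without R24h_T3, 5 of the 9 passed, as did 2551 of 14714 genes, against 611 of 14756 over all 12 libraries. Bcl2l11 had a difference of -0.03 (adjusted p = 0.885) over all 12 libraries.

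The wider pathway was followed in 6 lists that hold 124 genes apart from the members. At 24 h over both arms none of the 11 p53 regulators tested passed in limma, and their median was 0.07, against 0.10 for all genes. An unadjusted p under 0.05 was found for 2 (40.5% of all genes), and 4 passed without R24h_T3, as did 5288 of 14550 genes. Ep300, a co-activator that acetylates p53, had the smallest p at 0.23 (adjusted p = 0.0951). Ppm1d, the WIP1 phosphatase that p53 induces, was at 0.17 (adjusted p = 0.113).

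Of 33 tested genes in the list of other p53 targets, 10 were higher and none lower, with a median of 0.19. Over all genes tested 20.4% were higher and 5.7% lower, and the counts of this and the following lists are to be read against these shares. Gdf15, a stress cytokine, was at 0 to 0.0642 FPKM in sham and at 0.0929 to 7.53 FPKM at 24 h, a difference of 1.51 (adjusted p = 0.0325). Fas, a death receptor, went from 0.164 to 0.471 FPKM in sham to 0.576 to 2.78 FPKM, by 1.12 (adjusted p = 0.00136). Gtse1, a p53 inhibitor also linked to mitosis, differed by 1.10 (adjusted p = 0.0383). Sesn2, a stress-induced inhibitor of mTORC1 that ATF4 also drives, was at 4.13 to 5.26 FPKM in sham and 4.87 to 27.9 FPKM at 24 h, by 1.04 (adjusted p = 0.0438). For Fas and Gdf15 the groups did not overlap, and for Gtse1 and Sesn2 they did. Gdf15, Fas and Gtse1 were below 1 FPKM in every sham library, so they were tested only through 24 h libraries. Their rise was thus partly set by the filter. With no filter on low values, 7 of 38 genes of this list were higher, as were 2454 of 36050 genes. The other 6 called were Pmaip1, which encodes NOXA, Perp, Dcxr, Steap3, Abhd4 and Bloc1s2.

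The BCL2 family had 5 of 12 genes higher and none lower, with a median of 0.30, and those that rose included both survival and death genes. Bcl2a1b and Mcl1 encode anti-apoptotic proteins. Bcl2a1b was below 1 FPKM in every sham library, so it was tested only through its 24 h levels. Bcl2a1b, which is typical of myeloid cells and has near-identical copies that share reads, went from 0.218 to 0.553 FPKM to 1.71 to 10.2 FPKM, by 2.01 (adjusted p = 0.00123). Mcl1 went from 13.4 ± 1.01 to 27.5 ± 9.84 FPKM (SD, n = 6 each), by 0.91 (adjusted p = 0.00558). The effector gene Bak1 rose by 0.59 (adjusted p = 0.0297) and the BH3-only gene Bid by 0.51 (adjusted p = 0.00253), and Bad was the other one called.

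Among caspases and apoptosome genes 7 of 19 were higher and 1, Dffb, was lower, with a median of 0.19. Casp8, the initiator caspase of death receptors, rose by 1.19 (adjusted p = 0.00212) from 0.478 ± 0.0689 to 2.57 ± 1.27 FPKM (SD, n = 6 each). Casp1, the inflammasome caspase, rose by 0.84 (adjusted p = 0.00947). The inhibitors Birc3, at 0.91 (adjusted p = 0.00222), and Cflar, at 0.62 (adjusted p = 0.00309), rose too, and for all of these 4 genes the 24 h and sham libraries did not overlap. Across all genes 10.1% did not overlap, among them the members Trp53 and Ccng1. Casp8, Casp1 and Birc3 were below 1 FPKM in every sham library, so they were tested only through 24 h libraries. Their rise and lack of overlap were thus partly set by the filter. With no filter on low values, 7 of 23 genes of this list were higher.

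Cyclin and CDK inhibitor genes had 4 of 16 higher, close to the 20.4% of all genes, with a median of 0.24. Of these 4, Cdk6 was below 1 FPKM in every sham library and was tested only through 24 h libraries. Gadd45b, a relative of Gadd45a, differed by 1.23 in limma (adjusted p = 0.0185). Its limma difference was 2.12 (adjusted p = 0.0176) in the control arm and 0.34 (adjusted p = 0.698) in the Tiparp arm. As no gene passed the interaction term, this is no measured difference between the arms. Ccnd1, which encodes cyclin D1, rose by 1.02 (adjusted p = 0.00125), Pcna, a replication and repair clamp, by 0.62 (adjusted p = 0.00728), and Cdk6 by 0.46 (adjusted p = 0.0418). In the list of stress factors upstream of Bbc3 and Bcl2l11, 1 of 12 rose, Jun, by 1.09 (adjusted p = 0.00305). Trib3, an ATF4 target, was at 0.90 (adjusted p = 0.0534). The median of that list was 0.04.

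**Figure D4:**
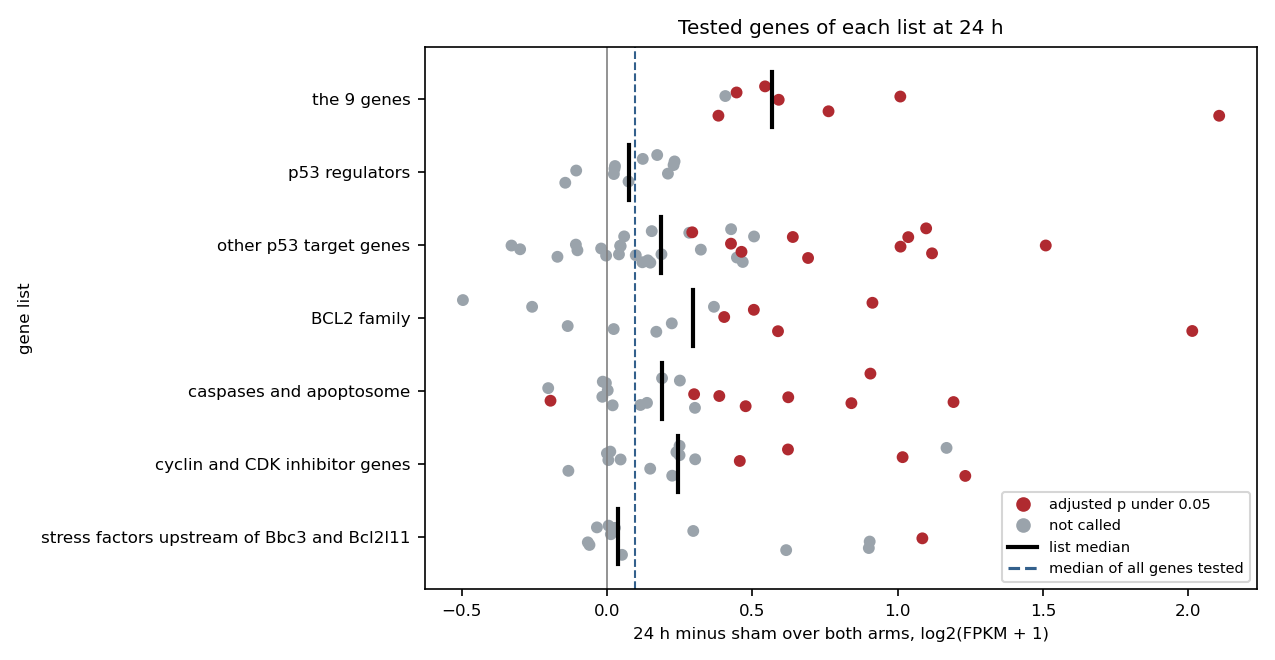
Difference at 24 h from sham over both arms, on the log2(FPKM + 1) scale, for each tested gene of the 9 members and of the 6 pathway lists; red points have an adjusted p under 0.05, black bars are list medians and the dashed line is the median of all genes (0.10). The members' median (0.57) lies to the right of those of the lists, which run from 0.04 to 0.30. Members and lists were chosen with earlier results of these data known.

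Without R24h_T3, 15 of the other p53 targets were higher, 6 of the cyclin list and 3 of the stress factors, while over all genes those called higher went from 2983 of 14589 to 4144 of 14550. Without the libraries rich in choroid plexus markers, which left Sham_T3 as the lone Sham_T library, fewer genes of the lists were called. The list medians were then 0.20 for other p53 targets, 0.41 for the BCL2 family and 0.14 for the caspases. They were 0.24 for the cyclin list, 0.06 for the regulators and 0.09 for the stress factors. In the Tiparp arm alone, and at 28 d against sham, no gene of the 6 lists passed. From 24 h to 28 d, Bcl2 was higher by 0.38 (adjusted p = 0.0411), Bid lower, at -0.46 (adjusted p = 0.0402), and Ccnd1 and Pcna lower as well.

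For each member, the genes with the most similar profile were found over the 18 libraries among 14972 genes, as the root mean square difference of log2(FPKM + 1) profiles set to mean 0 and SD 1. A small value says that the libraries rank and space alike. Errfi1 was nearest to Cdkn1a (0.235), before Brms1 and Slc10a6. Odc1 was nearest to Phlda3 (0.205), before Pno1 and Sec61a1, and Eif2s2 to Ccng1 (0.195), before Rwdd4a and Aqp9. Ptx3, Rbpj and Xrn2 came nearest to Trp53, and Eif3g, Chil3 and Nop2 to Mdm2. Ngdn, Mybbp1a and Clec4e were nearest to Bax, and Prpf38a, 2700060E02Rik and Gadd45g to Gadd45a. Bbc3 and Bcl2l11 had less close neighbours: Anp32e (0.397), Nop16 and Dhx8 for Bbc3, and Glipr1 (0.519), Crkl and Rybp-ps for Bcl2l11. Among the members themselves the closest pair was Phlda3 and Ccng1 (0.384). All these profiles share the same 18 libraries, so their likeness is a description.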

How the data were processed

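RNA-seq of ipsilateral cortex gave 18 libraries in 6 groups of 3, taken from the sample titles and AAV and treatment labels. The deposited values are FPKM per gene. Per the submitters' processing notes, HISAT, StringTie, edgeR and build mm9 were used, with no versions given. Poly(A) RNA was made into dUTP-marked libraries with molecular identifiers and read from both ends, per the labels' protocols. Whether counting used strand or identifiers is not given in the sources used here, and annotated models overlap Bax (Gm45808), Cdkn1a and Gadd45a (E230016M11Rik). FPKM give no read totals, so the depth is unknown.

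The test was limma 3.58.1 (trend, empirical Bayes, two-sided) in R 4.3.3 on log2(FPKM + 1), with the groups compared only, genes at 1 FPKM or more in at least 3 libraries, and Benjamini-Hochberg adjustment over all genes tested at 0.05. Of 62 repeated symbols the entry with the highest mean was used. Named were all 9 members, up to 4 called genes of a pathway list with the largest difference at 24 h (or 2 by smallest p), 3 nearest profiles per member, and Tiparp. Further names that complete a count, Bcl2, and single libraries were chosen after their values were seen. The members and lists were chosen with earlier results of these data known. On simulated data the 24 h test over both arms (14589 genes) recovered 91% of log2 changes of 1 and 97% of changes of 2, and 5.53% of its calls were false. For the arms at 24 h (14018 genes) these were 37%, 82% and 2.46%, and for the interaction (14589 genes) 58%, 86% and 7.69%. The simulated noise was drawn for each gene on its own, with the same SD in every group. Shifts shared by many genes in a library were not simulated. Libraries correlated at 0.983 to 0.984 within Sham_C and 0.944 to 0.965 within R24h_C. The simulated rates may therefore not hold for the data. As alternatives the pseudocount was 0.1, low genes were kept, or libraries were scaled by the median ratio. Other fits had a replicate block or all 18 libraries. Each library was left out in turn. So, together, were those of the 4 libraries with over 100 FPKM of summed choroid plexus markers that were in the groups compared. Promoter sequences are RefSeq's on GRCm38.p6, and no coordinates of the authors' build were used. Figures were drawn with matplotlib 3.10.9.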

Additional observations from a re-analysis of the deposited data

How the results depend on the processing

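Depth could not be read from FPKM, and 3 libraries a group limit every comparison. Of the 14 member differences called, none changed direction under any setting. At 24 h over both arms, 7 members were called, 4 without the filter, 0 without the libraries rich in choroid plexus markers, and 4 to 8 with each library left out. In the control arm the 6 became 2 without the filter and 1 to 8 with each library left out. In the Tiparp arm the 0 became 0 to 1. From 24 h to 28 d the 1 became 0 without the filter, 5 with all 18 libraries in 1 fit, 0 without the choroid-rich libraries and 0 to 5 with each library left out. The cause of these changes was not tested.

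Replicate numbers did not pair the libraries: over 45 same-numbered pairs the correlation of deviations was -0.48 to 0.21, and 3 were over 0.1. With the number as a replicate block, 5 members were called over both arms, 4 in the control arm and 0 from 24 h to 28 d. Of all genes, 3815 were called over both arms, 3075 with the block, 4583 with all 18 libraries and 2226 to 5288 with each library left out. Leaving out each library gave 320 to 4854 called genes in the control arm and 0 to 825 in the Tiparp arm. From 24 h to 28 d it gave 0 to 2551.

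None of the differences that changed sign was called. With median-ratio scaling Mdm2 at 28 d was -0.013, Gadd45a between sham arms -0.0041 (-0.0017 with a pseudocount of 0.1) and Bbc3 in the interaction 0.015. Without choroid-rich libraries, at 28 d Mdm2 was -0.017, Bbc3 -0.061 and Gadd45a 0.15. Between sham arms Trp53 was 0.096, Mdm2 0.0098, Bbc3 0.14, Ccng1 -0.18 and Gadd45a -0.36. Cdkn1a between arms at 28 d was 0.014, and in the interaction Bax was 0.012, Ccng1 0.086 and Gadd45a 0.053.

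With each library left out, ranges between sham arms were -0.071 to 0.057 (Bax), -0.064 to 0.12 (Ccng1), -0.11 to 0.19 (Gadd45a), -0.11 to 0.0096 (Mdm2) and -0.13 to 0.0019 (Trp53). Between arms at 28 d they were -0.20 to 0.041 (Bax), -0.050 to 0.19 (Bbc3), -0.37 to 0.097 (Cdkn1a) and -0.15 to 0.21 (Trp53). Between arms at 24 h Ccng1 ran from -0.56 to 0.055. In the interaction they were -0.18 to 0.10 (Bbc3), -0.58 to 0.032 (Ccng1) and -1.12 to 0.63 (Cdkn1a). Against sham they were -0.20 to 0.026 (Cdkn1a), -0.13 to 0.018 (Gadd45a) and -0.024 to 0.049 (Mdm2) at 28 d, and -0.17 to 0.59 for Gadd45a in the Tiparp arm at 24 h. From 24 h to 28 d Bcl2l11 ran from -0.094 to 0.010.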
